A study of Mus musculus with 30 samples.

Results

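Expression of 8 genes that are widely used as markers of the extraembryonic endoderm, Gata4, Gata6, Sox7, Sox17, Pdgfra, Dab2, Cubn and Amn, was followed in mouse iPSCs that left pluripotency and were then challenged to regain it. The genes were chosen by name, and each had 1 row among the 22477 genes of the RNA-seq table. The cells of all conditions were secondary iPSCs that carried dox-inducible Oct4, Sox2, Klf4 and c-Myc (OSKM) transgenes, GFP placed at the endogenous Nanog locus and a constitutive nuclear RFP. They were kept on CF1 mouse embryonic fibroblasts (MEFs) in serum/LIF before the experiment, and the methods, as written for colony formation, moved them to 2i/LIF and gelatin before 2i/LIF was withdrawn in N2B27. The 30 samples made up 15 conditions with 2 replicates each. A time course held 7 conditions, at 0, 24, 36, 48, 60, 72 and 96 h of withdrawal. For the remaining 8 conditions, cells that had differentiated for 0, 24, 48 or 96 h spent a further 48 h re-seeded in serum/LIF, either lacking dox (–dox) or given dox at 2 µg/ml (+dox), which switches the OSKM transgenes on. For colony formation, re-seeding was onto CF1 MEFs, and whether this held for the re-seeded RNA-seq samples was not given in the sources used here.

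The extraembryonic endoderm arises early in the mouse embryo as the primitive endoderm, the lineage that separates from the pluripotent epiblast, and later forms the visceral endoderm around the embryo and the parietal endoderm that lays down a thick basement membrane. GATA factors and Sox factors of the F group set up this identity, FGF signalling promotes it, and the receptor PDGFRA marks the cells that have taken it on. Mature visceral endoderm takes up nutrients through a receptor made of cubilin and amnionless, with megalin (Lrp2) as a partner and the adaptor DAB2 on the inner side of the membrane. None of the 8 genes is exclusive to this lineage: fibroblasts, endothelium, heart, trophoblast or kidney use several of them.

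The sequences before the transcription starts of 3 members are shown because Dab2 was the most abundant member and Cubn and Amn encode the subunits of the cubilin receptor. RefSeq windows on GRCm38.p6, the patch release of the mm10 build that the authors mapped to, were found for 4 of the 8 members (Amn, Cubn, Dab2 and Pdgfra), with a pair of starts for Dab2. Each line gives the 250 bases upstream of a start, 5′ to 3′ along the gene, for Dab2 at chr15:6299539-6299788 (+ strand) and chr15:6386498-6386747 (+ strand), for Cubn at chr2:13491877-13492126 (– strand) and for Amn at chr12:111270846-111271095 (+ strand). Capitals mark the letters of a GATA motif.
Dab2 upstream start: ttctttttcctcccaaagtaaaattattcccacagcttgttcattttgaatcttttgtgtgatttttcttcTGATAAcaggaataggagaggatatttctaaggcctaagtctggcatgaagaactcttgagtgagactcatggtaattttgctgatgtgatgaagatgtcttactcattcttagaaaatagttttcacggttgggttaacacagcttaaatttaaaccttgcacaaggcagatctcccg
Dab2 downstream start: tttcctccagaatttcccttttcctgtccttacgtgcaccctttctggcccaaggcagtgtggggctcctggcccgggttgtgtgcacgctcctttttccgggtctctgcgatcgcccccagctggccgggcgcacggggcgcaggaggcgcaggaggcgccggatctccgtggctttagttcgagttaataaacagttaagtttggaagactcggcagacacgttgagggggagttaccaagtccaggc
Cubn: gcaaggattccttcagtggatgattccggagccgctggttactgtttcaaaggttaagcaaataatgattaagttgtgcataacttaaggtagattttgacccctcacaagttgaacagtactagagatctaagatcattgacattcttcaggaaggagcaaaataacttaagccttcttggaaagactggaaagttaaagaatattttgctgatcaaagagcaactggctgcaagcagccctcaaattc
Amn: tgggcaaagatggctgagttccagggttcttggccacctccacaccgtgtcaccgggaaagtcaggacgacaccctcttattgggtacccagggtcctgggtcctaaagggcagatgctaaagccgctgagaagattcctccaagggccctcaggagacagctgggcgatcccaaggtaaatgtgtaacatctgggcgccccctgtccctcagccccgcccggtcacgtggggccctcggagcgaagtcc

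The GATA motif was searched on both strands as the hexamers AGATAA, also TGATAA, also AGATAG and also TGATAG, and 26.5% of the 32536 mouse windows of the same length held at least 1 match. Among the 5 windows of the members there was 1 match, a TGATAA that began 179 bases before the upstream start of Dab2. The letters of a SOX motif (ACAATG, also ACAATA and also ACAAAG, in 30.2% of all windows) and of an octamer motif (ATGCAAAT, in 1.62%) were not in any of the 5 windows. The upstream Dab2 window held 36.8% G and C with 2 CpG sites and the Cubn window 39.6% with 2, below the medians of 52.4% and 6 over all windows. The downstream Dab2 window (60% with 17 CpG sites) and the Amn window (61.2% with 11) lay above these medians. The Pdgfra window, which is not shown, held 54.4% G and C with 4 CpG sites. A match of these letters is a description of the window and not evidence of binding.

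The values are FPKM, fragments scaled by transcript length and by library size, and each condition had 1 value in which the authors had combined both replicates. Without replicate values no error or test was computed here, and the differences below are sizes only. The number of fragments behind a value is not given, but low values fell on a ladder whose step, the value of a lone fragment, could be estimated. The step was between 0.0189 and 0.0219 FPKM × kb for the re-seeded 0 and 24 h cells and between 0.0397 and 0.066 in the other conditions, so those 4 conditions were read more deeply. The steps behind a member's value were counted with its longest transcript and are an upper limit. Of the 105 values of the members other than Dab2, 27 stood at 20 steps or fewer, and ratios that rest on such values are imprecise.

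All 8 genes were detected, but most of them at low levels (the plot of the members' values by time). Each reached 1 FPKM in at least 1 of the 15 conditions, as 14856 of all genes did, yet 79 of their 120 values lay under 1 FPKM and only 9 were at or over 5. Dab2 and Sox17 reached 5 FPKM somewhere, and in the time course Dab2 was the only member over 3. The sum over the 8 members was 6.76 FPKM at 0 h, 3.70 at 36 h, its lowest, and 34.4 at 96 h, and its highest value was 43.9 in the cells re-seeded from 96 h –dox. Dab2 made up between 15.8% (0 h +dox) and 81.3% (60 h) of that sum. Without Dab2 the sum ran from 1.75 at 36 h to 15.4 in the 96 h –dox cells.

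**Figure D1:**
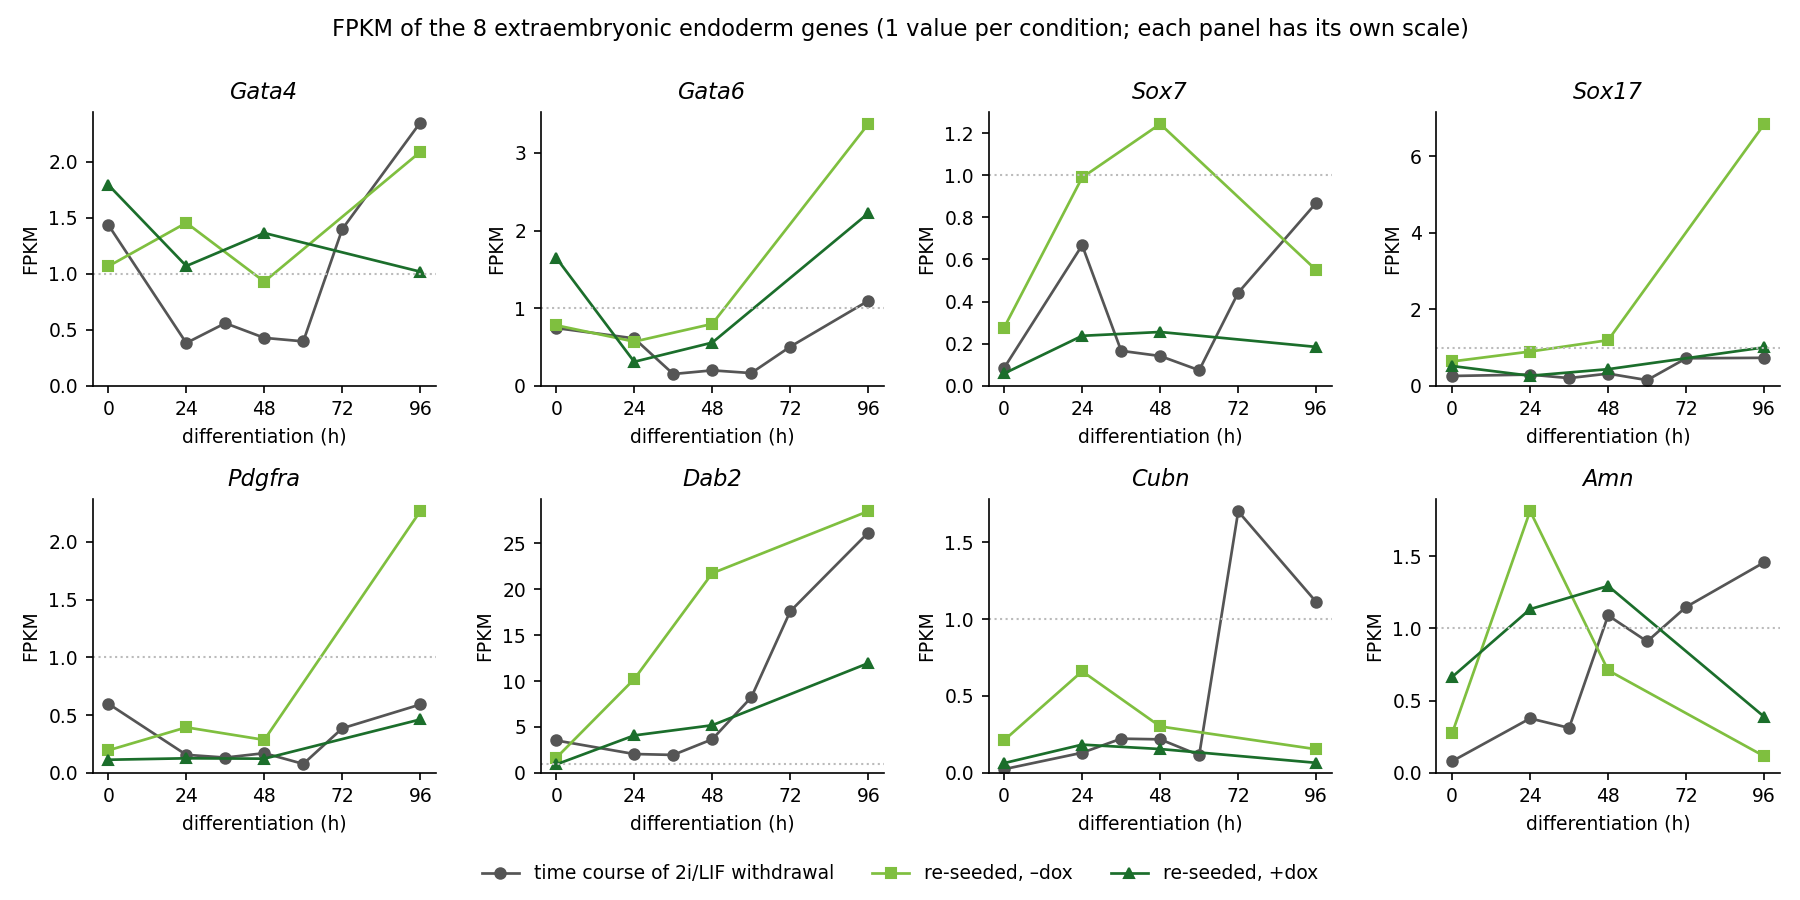
FPKM of each member against hours of differentiation, with 1 panel per gene on its own vertical scale. Grey circles are the time course, light green squares the cells re-seeded –dox, dark green triangles those re-seeded +dox, and the dotted line is 1 FPKM; each point is the authors' value from both replicates. Dab2 climbs to 26.2 at 96 h, whereas Gata6, Sox17 and Pdgfra are highest in the 96 h –dox cells.

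Gata4 and Gata6 encode the zinc finger factors at the head of the primitive endoderm programme. Gata4 (chr14:63198922-63271692, – strand) had 1.44, 0.383, 0.560, 0.429, 0.397, 1.40 and 2.35 FPKM over the 7 timepoints. It was therefore low from 24 to 60 h and higher on either side of that window. In the re-seeded cells it varied less, with 1.07, 1.46, 0.931 and 2.09 after 0, 24, 48 and 96 h –dox and 1.80, 1.07, 1.37 and 1.02 +dox.

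Gata6 followed a similar course at lower levels in differentiation, with 0.744, 0.611, 0.152, 0.199, 0.164, 0.504 and 1.095 FPKM from 0 to 96 h. Its values at 36, 48 and 60 h rested on 8, 12 and 11 steps. After re-seeding it was at 0.780, 0.570, 0.798 and 3.37 –dox and at 1.65, 0.310, 0.557 and 2.22 +dox, so both series had their highest value after 96 h of differentiation. Of the other GATA genes, Gata2 reached 49.7 and Gata3 13.3 in the 96 h –dox cells, while Gata1 and Gata5 never reached 1 FPKM. In the time course Gata2 was at 3.10 at most and Gata3 at 3.11, closer to the members.

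Sox7 and Sox17 belong, with Sox18, to the SoxF group of HMG box factors, which act in endoderm and in blood vessels. Sox7 (chr14:63943673-63950732, + strand) lies 672 kb from Gata4. Its values of 0.0851, 0.667, 0.166, 0.142, 0.0740, 0.442 and 0.869 FPKM over the time course never reached 1. The lowest of them, at 60 h and 0 h, stood at 4 steps. It was highest in the 48 h –dox cells at 1.24, after 0.276 and 0.989 from 0 and 24 h, and was 0.550 from 96 h. With dox it stayed between 0.0586 and 0.256 in all 4 conditions.

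Sox17 (chr1:4490931-4497354, – strand) was under 1 FPKM throughout the time course, at 0.258, 0.293, 0.202, 0.319, 0.149, 0.720 and 0.733. In the –dox cells it was 0.637, 0.897, 1.19 and 6.84 after 0, 24, 48 and 96 h, and the last of these, at 367 steps, was the highest value of any member other than Dab2. The +dox values were 0.518, 0.264, 0.435 and 1.01. Sox18, the remaining gene of the group, was at 0.12 in the 96 h –dox cells and did not reach 1 in any condition. High Sox17 in these cells was thus not shared by Sox7 or Sox18.

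Pdgfra (chr5:75152292-75198215, + strand), the PDGF receptor used to sort primitive endoderm, was the member with the lowest ceiling in the time course. Its values were 0.599, 0.156, 0.132, 0.170, 0.0772, 0.386 and 0.592 FPKM from 0 to 96 h, high at both ends. It was at 0.195, 0.394, 0.285 and 2.27 –dox and at 0.113, 0.126, 0.123 and 0.462 +dox. Only the 96 h –dox cells exceeded 1 FPKM. Pdgfrb, the related receptor of fibroblasts and pericytes, had the same 2 high points, with 3.08 at 0 h and 7.37 in the 96 h –dox cells against 0.24 at 48 h.

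Dab2 (chr15:6299788-6440712, + strand) encodes an endocytic adaptor with 14 annotated transcripts, which the table merges into 1 value. Over the time course it was at 3.53, 2.05, 1.95, 3.66, 8.22, 17.6 and 26.2 FPKM, a dip at 24 and 36 h followed by an increase at each later time. The –dox cells gave 1.63, 10.2, 21.8 and 28.5 and the +dox cells 0.915, 4.08, 5.19 and 11.95, so that both series were ordered by the time the cells had differentiated. With 132 steps or more behind every value, Dab2 was the best measured of the 8 genes. Its percentile among all genes of a condition ran from 45 to 84.5.

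Cubn and Amn encode cubilin and the membrane protein amnionless that carries it to the cell surface, and they are the members closest to visceral endoderm function. Cubn (chr2:13276338-13491813, – strand) was at 0.0238, 0.131, 0.222, 0.218, 0.115, 1.70 and 1.11 FPKM in the time course, so that only 72 and 96 h, at 319 and 309 steps, exceeded 1. Re-seeded cells had 0.212, 0.661, 0.302 and 0.154 –dox and 0.0633, 0.184, 0.155 and 0.0651 +dox. Exons of Gm13270, a gene on the opposite strand, overlap those of Cubn, and since no use of strand is stated for the counting, reads in the overlap cannot be told apart. Gm13270 was at 5.27 at 24 h, where Cubn was at 0.131, and at 0.508 and 0.786 at 72 and 96 h, where Cubn was highest. Exons of Gata6, Sox17, Pdgfra and Dab2 also overlap other annotated genes, of which only 1010001N08Rik, opposite Gata6 and at 0.229 at most, had a row.

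Amn (chr12:111271095-111276426, + strand) was at 0.0802, 0.377, 0.311, 1.09, 0.909, 1.15 and 1.46 FPKM from 0 to 96 h. It passed 1 FPKM at 48 h, before Cubn did. The –dox cells had 0.273, 1.81, 0.710 and 0.115 and the +dox cells 0.663, 1.13, 1.29 and 0.388, so that in both series the cells from 96 h were lower than those from 24 and 48 h. Amn is a short transcript of 1.70 kb at most, and its values at 0 h and in the 96 h –dox cells rested on 2 and 3 steps.

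Lrp2, the large receptor that works with cubilin, was far more abundant than either subunit (the plot of Cubn, Amn, Dab2 and Lrp2). Its values were 0.366, 6.76, 12.1, 13.6, 22.2, 34.2 and 36.2 FPKM over the time course. In the –dox cells it was highest from 48 h at 42.3 and only 9.62 from 96 h, where Cubn and Amn were low as well and Dab2 was at its highest. Over the 15 conditions, Spearman's rho with Lrp2 was 0.74 for Amn, 0.71 for Dab2 and 0.61 for Cubn. Of the 12 partners of cubilin uptake that were listed, 10 reached 1 FPKM, and Gif, which encodes a vitamin B12 carrier that cubilin binds, was at 0.0151 at most.

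**Figure D2:**
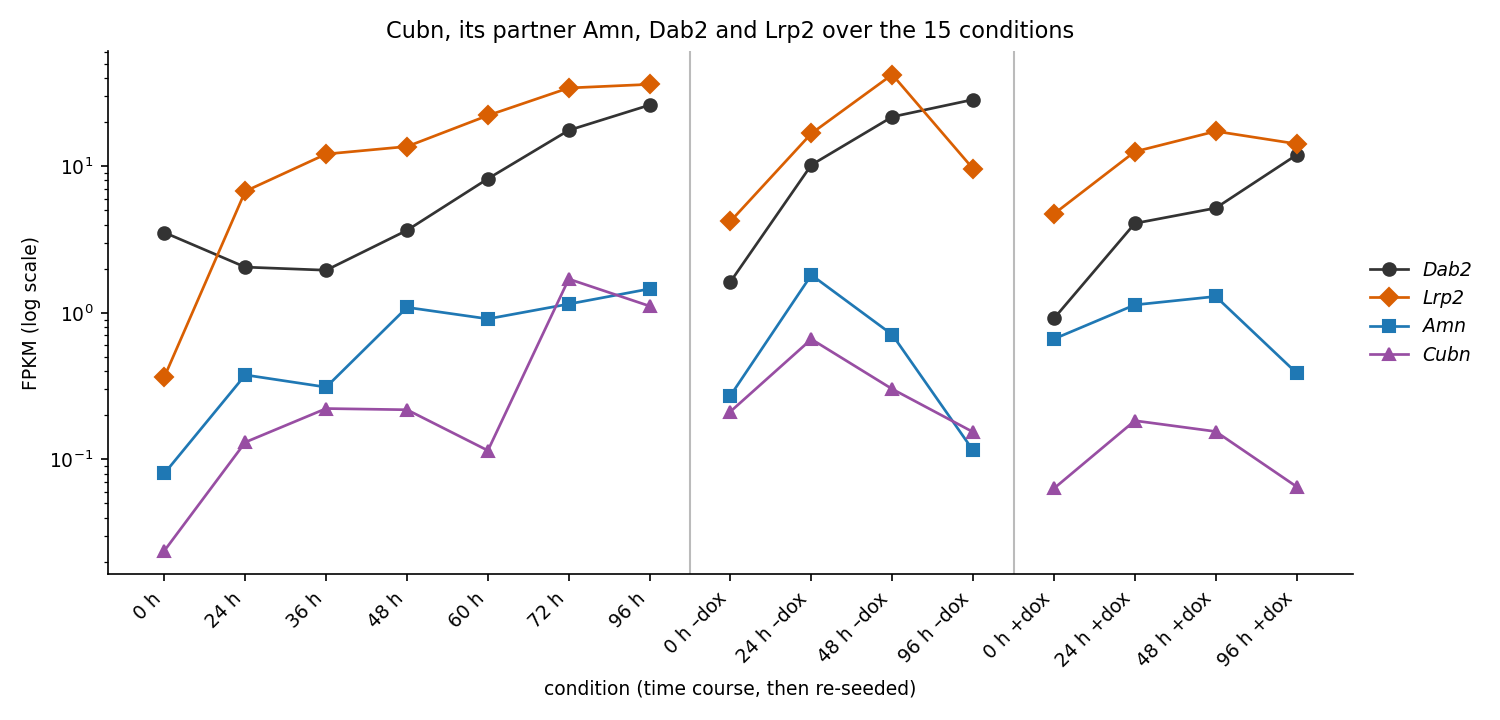
FPKM on a log scale of Dab2 (black circles), Lrp2 (orange diamonds), Amn (blue squares) and Cubn (purple triangles) in the 15 conditions, 1 value each, with grey lines between the time course, the –dox and the +dox cells. Lrp2, Amn and Cubn are all lower in the 96 h –dox than in the 48 h –dox cells, while Dab2 is not.

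The comparisons between conditions counted a member as changed when the ratio of its values was at least 2 and the higher value at least 1 FPKM (the plot of ratios in 10 comparisons). A member can reach 1 FPKM through its higher condition alone, so a count among the members tested does not say how often members changed. The first comparisons set 24 and 96 h of 2i/LIF withdrawal against 0 h. Medium and time in culture differed between them. So did the sum of 20 fibroblast markers, at 1283 FPKM at 0 h, 222 at 24 h and 173 at 96 h, and these cannot be told apart. At 24 h against 0 h, 2 members reached 1 FPKM in either condition. Gata4 was lower by 3.76-fold, where 14.3% of all genes tested were called lower, and no member was called higher, against 8.64% of all genes. Sox7, Cubn and Amn had ratios of 7.84, 5.50 and 4.70 in the other direction, but none reached 1 FPKM and their 0 h values stood at 4, 4 and 2 steps.

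At 96 h against 0 h, 5 members were tested and 3 were called higher, against 16.8% of all genes, with none lower, against 16.4%. Dab2 was 7.42-fold higher. Cubn and Amn went from 0.0238 to 1.11 and from 0.0802 to 1.46, and with 4 and 2 steps at 0 h the ratios of 46.7 and 18.2 are little more than an order of size. Gata4 and Gata6 differed by 1.64-fold and 1.47-fold. Sox7, at a ratio of 10.2, and Sox17, at 2.84, were higher at 96 h but stayed under 1 FPKM, and Pdgfra was at 0.988 of its 0 h value. In all, 7 of the 8 log2 ratios were above 0, as were 48.7% over all genes tested, and their median on the log2(FPKM + 0.1) scale was 1.80 against -0.02. Here and below, such figures for the members take in all 8, also those under 1 FPKM in both conditions. Those for all genes cover only genes that reached 1 FPKM, so the sets are unlike.

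The –dox cells were compared with cells of the time course that had differentiated for as long, to see where the genes stood after transfer to serum/LIF. For cells that had not differentiated, 0 h –dox against 0 h, 2 members were tested. Dab2 was 2.17-fold lower, where 10.1% of genes were called lower and 12% higher, and no member was called higher. With the conditions scaled to the same total FPKM, the Dab2 ratio was 1.84 and the call was lost. From 24 h, all 3 members tested were called higher, against 14.9% of genes, and none lower, against 10.6%. Gata4 was 3.81-fold higher, Dab2 4.98-fold and Amn, with 11 steps at 24 h, 4.81-fold. From 48 h, 3 of 4 were called higher, against 15.3%, and none lower, against 11.5%. These were Sox7 by 8.78-fold, with 7 steps at 48 h, Sox17 by 3.74-fold, with 16 steps at 48 h, and Dab2 by 5.95-fold.

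Cells re-seeded from 96 h –dox divided the members. Of 7 tested, 3 were called higher than at 96 h, against 12.4% of genes, and 2 lower, against 11.2%. Sox17 was 9.33-fold higher, Pdgfra 3.83-fold and Gata6 3.08-fold. Cubn was 7.24-fold lower and Amn, with 3 steps in the re-seeded cells, 12.7-fold lower. Gata4 and Dab2 differed by 1.13-fold and 1.09-fold. The median log2 ratio of the members was -0.02 and that of all genes tested 0.01, between calls in opposite directions. The time spent in culture and the medium both differed between these conditions, and possibly the feeders, and they cannot be told apart.

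The comparison of +dox with –dox cells asked what OSKM induction added in the same medium. These comparisons share their –dox conditions with those of re-seeding and are not independent of them. From 0 h, Gata6 was 2.11-fold higher with dox, the 1 call higher among 3 members tested, against 3.62% of genes, with none lower, against 5.61%. On an equal total the Gata6 ratio was 1.80 and not called, and Dab2 was called lower by 2.09-fold. From 24 h, Dab2 was 2.50-fold lower, the only call among 3 members, against 3.4% of genes lower and 2.87% higher. All 8 members were lower with dox at 24 h, though only 3 of them reached 1 FPKM, and 47.6% of the genes tested were lower. The median log2 ratio was -1.22 over the 8 members and 0.02 over the genes tested.

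From 48 h, 3 of 5 members were called lower with dox, against 6.46% of genes, and none higher, against 6.56%: Sox7 by 4.86-fold, with 13 steps in the +dox cells, Dab2 by 4.19-fold and Sox17 by 2.74-fold. From 96 h, 4 of 5 were called lower, against 11.1%, and none higher, against 6.67%. Sox17 was 6.80-fold, Pdgfra 4.90-fold, Dab2 2.39-fold and Gata4 2.05-fold lower, the last only just past the limit. Gata6, at 2.22 against 3.37 FPKM, was not called. The medians of the log2 ratios were -0.72 from 48 h and -1.08 from 96 h, and those of all genes tested -0.02 and -0.01. Amn was above its –dox value from 0, 48 and 96 h, and Gata4 from 0 and 48 h.

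**Figure D3:**
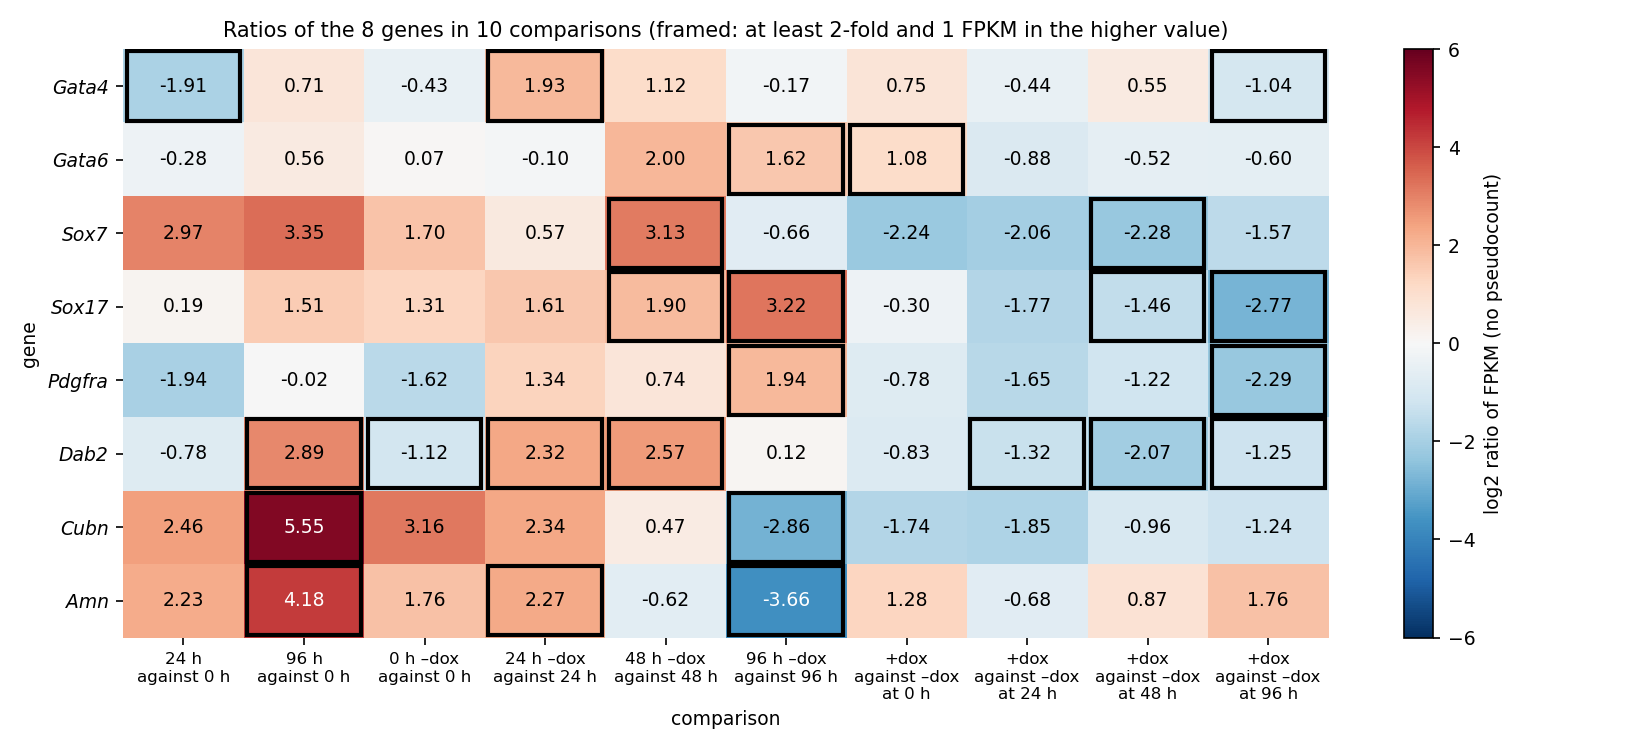
Log2 ratios of FPKM, without a pseudocount, of the 8 members (rows) in 10 comparisons (columns), with red for higher and blue for lower in the condition named first. Frames mark a ratio of 2 or more whose higher value reaches 1 FPKM. In the +dox columns from 24, 48 and 96 h every frame is blue.

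Other genes of the endoderm differed by list (the plot of other endoderm genes). Of 10 further transcription factors of early endoderm, 4 reached 1 FPKM (Foxa2, Foxq1, Eomes and Gsc). Foxa2, a forkhead factor of all endoderm, was highest in the 96 h –dox cells at 2.19, and Foxq1 at 2.15. Gsc was at 8.97 at 0 h and 0.05 at 24 h. At 96 h against 0 h, Foxq1 was called higher and Eomes and Gsc lower, of 3 tested, where 16.8% of all genes were called higher and 16.4% lower. From 96 h –dox against 96 h, Foxa2 was called higher, of 2 tested, where these shares were 12.4% and 11.2%.

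Of 14 secreted and transport genes of visceral endoderm, 9 reached 1 FPKM somewhere and 5 did not. The 5 were Afp, at 0.128 FPKM at most, Ttr at 0.318, Ihh at 0.307, Apob at 0.707 and Apoa1 at 0.940. Several of the 9 were high early and low late, with Apoa2 at 48.4 at 36 h and 10.4 at 96 h, Apoc2 at 9.13 at 24 h and 0 at 96 h, and Trf at 10.9 and 0.776 at the same times. At 96 h against 0 h, 3 of 9 tested were called higher (Rbp4, Lrp2 and Slc39a8), against 16.8% of all genes, and 6 lower (Apoa2, Apoc2, Apom, Trf, Rhox5 and Dpp4), against 16.4%. Rhox5, a homeobox gene of the X chromosome, was at 414 at 0 h and 121 at 96 h. Slc39a8, a metal transporter, went from 0.30 at 0 h to 6.11 at 96 h and stood at 20.4 in the 96 h –dox cells.

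Of 8 genes of the anterior visceral endoderm, 5 reached 1 FPKM. The most abundant were Lefty1, a Nodal inhibitor, at 306 in the 24 h –dox cells, and Otx2, a homeobox factor that the epiblast also uses, at 111 at 36 h. Cer1 was at 0.042 at most, Lhx1 at 0.181 and Sfrp5 at 0.775. From 96 h –dox against 96 h, 5 were tested, where 12.4% of all genes were called higher and 11.2% lower. Dkk1, a secreted Wnt inhibitor, was called higher, at 31.0 against 1.79 FPKM. Lefty1 (1.32 against 49.4), Otx2 (16.1 against 33.7) and Hhex (0.462 against 3.02) were called lower, and Fzd5, at 2.64 against 2.85, was not called. The 14 genes of parietal endoderm and basement membrane were all at or over 1 FPKM together in the 96 h –dox cells, and between 9 and 13 of them were in each other condition. From 96 h –dox against 96 h, 6 of 14 were called higher, against 12.4% of all genes, and none lower, against 11.2%. Among them Col4a1 was at 104 against 18.7 FPKM, Col4a2 at 103 against 15.1 and Thbd, which encodes thrombomodulin, at 3.28 against 0.13. Of the genes not called, Nid2 (18.8 against 34.3), Srgn (2.86 against 4.44) and Pth1r (2.14 against 3.22) were lower. Lama1, Lamb1, Lamc1, Sparc and Fst were higher by less than 2-fold. With dox from 96 h, 14 were tested. Lama1 was called higher, against 6.67% of all genes, and Nid1, Thbd, Plat and Fst lower, against 11.1%, while Col4a1 was at 74.9. Basement membrane genes are also used by fibroblasts, muscle and vessels.

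**Figure D4:**
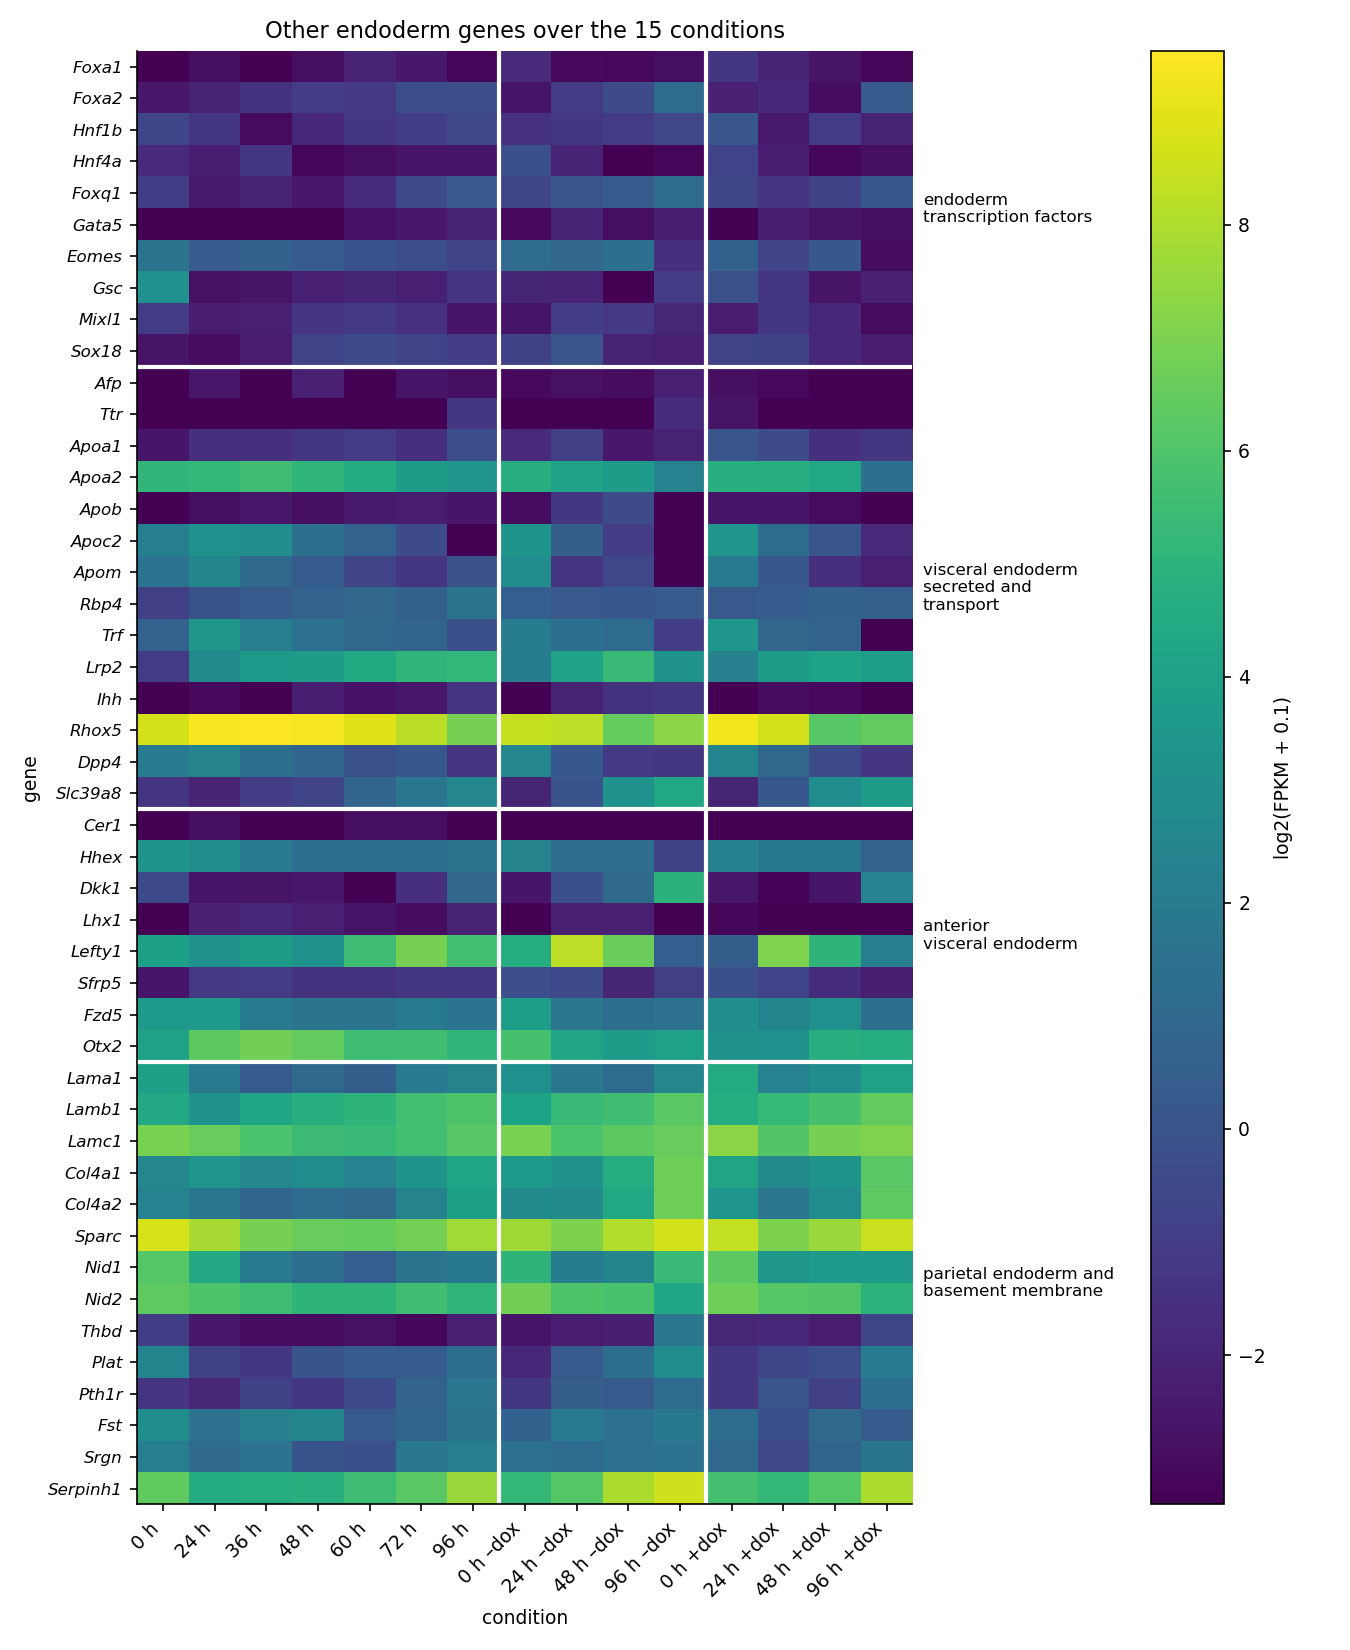
Colour gives log2(FPKM + 0.1) of the other endoderm genes (rows, in 4 lists) in the 15 conditions (columns, time course, –dox, +dox). Afp, Ttr, Cer1, Lhx1, Foxa1 and Gata5 are dark throughout, whereas most of the basement membrane genes at the bottom are bright. Thbd is under 1 FPKM outside the 96 h –dox cells, and Col4a1 and Col4a2 are brightest in those cells.

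The signals that bear on the choice between primitive endoderm and epiblast are FGF4 and its receptors, and PDGFA is a ligand of PDGFRA. Fgf4 fell from 82.7 FPKM at 0 h through 38.6 at 48 h to 3.11 after 96 h, with 0.58 in the 96 h –dox cells. Fgfr2, which primitive endoderm uses, went the other way from 2.38 at 0 h to 60.1 at 96 h. Pdgfa was at 72.0 at 0 h and 11.5 at 96 h, and the 96 h –dox cells, where Pdgfra was highest, had 46.0. From 96 h –dox against 96 h, 5 of the 9 genes tested were called higher (Pdgfa, Pdgfb, Pdgfc, Pdgfd and Pdgfrb), against 12.4% of all genes, and Fgf4 lower, against 11.2%.

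Markers of other lineages moved with several members (the plot of 3 members beside marker lists). In bulk RNA, fewer cells of a type and less RNA per cell cannot be told apart, and neither can a rare cell type with high expression and low expression in many cells. At 0 h, 18 of 20 fibroblast markers reached 1 FPKM and their sum was 1283 FPKM, with Col1a1 at 229 and Col3a1 at 201. The sum was 222 at 24 h and 205 in the 0 h –dox cells, where Col3a1 was at 0.12 and Twist2 and Lum were at 0. Fn1 made up 22.9% of the sum at 0 h. In the 0 h –dox cells it made up 92.0%, and 7 of the 20 markers reached 1 FPKM. Pdgfra was at 0.599 at 0 h, 0.156 at 24 h and 0.195 in the 0 h –dox cells. At 96 h it was at 0.592 with a fibroblast sum of 173, of which Acta2 made up 56.7%. Over the 15 conditions the rho of Pdgfra with the fibroblast sum was 0.38. Gata4 was at 1.44 and 0.383 at 0 and 24 h, and at 1.07 in the 0 h –dox and 1.80 in the 0 h +dox cells. The part of fibroblast RNA in the 0 h values of the members was not tested.

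In the 96 h –dox cells, where Sox17, Gata6 and Pdgfra were highest, 10 of 11 trophoblast markers reached 1 FPKM, 10 were called higher than at 96 h, against 12.4% of all genes, and none was at 0. Plac1 was at 103 FPKM, Tfap2c at 82.5, Ascl2 at 40.0, Hand1 at 38.2, Elf5 at 3.44 and Cdx2 at 1.27. Eomes, the remaining marker, was lower, at 0.236 against 0.515 at 96 h. The sum of the 11 markers was 3584 against 964 at 96 h and 1535 in the 96 h +dox cells. Krt18 alone made up 57.8% of the 3584, and Krt8, at 1227 FPKM, was the next largest part. At 96 h Krt18 was at 670 and Krt8 at 272, so the sum mostly follows these keratins. Among the 20 fibroblast markers 13 reached 1 FPKM, with a sum of 541 against 173 at 96 h and Meox1 at 0. Acta2 made up 47.2% of the sum in the 96 h –dox cells and 56.7% at 96 h. Col1a1 was at 33.2, Col1a2 at 86.0 and Pdgfrb at 7.37.

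Endothelial markers were mixed in the same cells. Of 14 markers 5 reached 1 FPKM, and of 6 tested against 96 h, 3 were called higher, against 12.4% of all genes, and 2 lower, against 11.2%. Cdh5, which encodes VE-cadherin, was at 13.1 FPKM against 0.247 at 96 h and 0.776 in the 96 h +dox cells, Flt1 at 7.68 against 1.48 at 96 h and Esam at 2.80 against 0.354. Egfl7, at 29.6 against 63.0, and Etv2, at 0.135 against 1.08, were lower. Pecam1 was at 1.52, Kdr at 0.64, Tie1 at 0.13, Erg at 0.06 and Emcn at 0.05. The sum of the list was 56.4 against 69.5 at 96 h, and Egfl7 was its largest part in both. Of 12 genes of early and cardiac mesoderm only Hand1 reached 1 FPKM, and Mesp1 and Tbx5 were at 0. Among 9 genes of definitive endoderm 3 reached 1 FPKM (Foxa2, Cxcr4 and Kit), while Cer1 and Lhx1 were at 0. The part of these lineages in the Sox17, Gata6 and Pdgfra values was not tested.

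**Figure D5:**
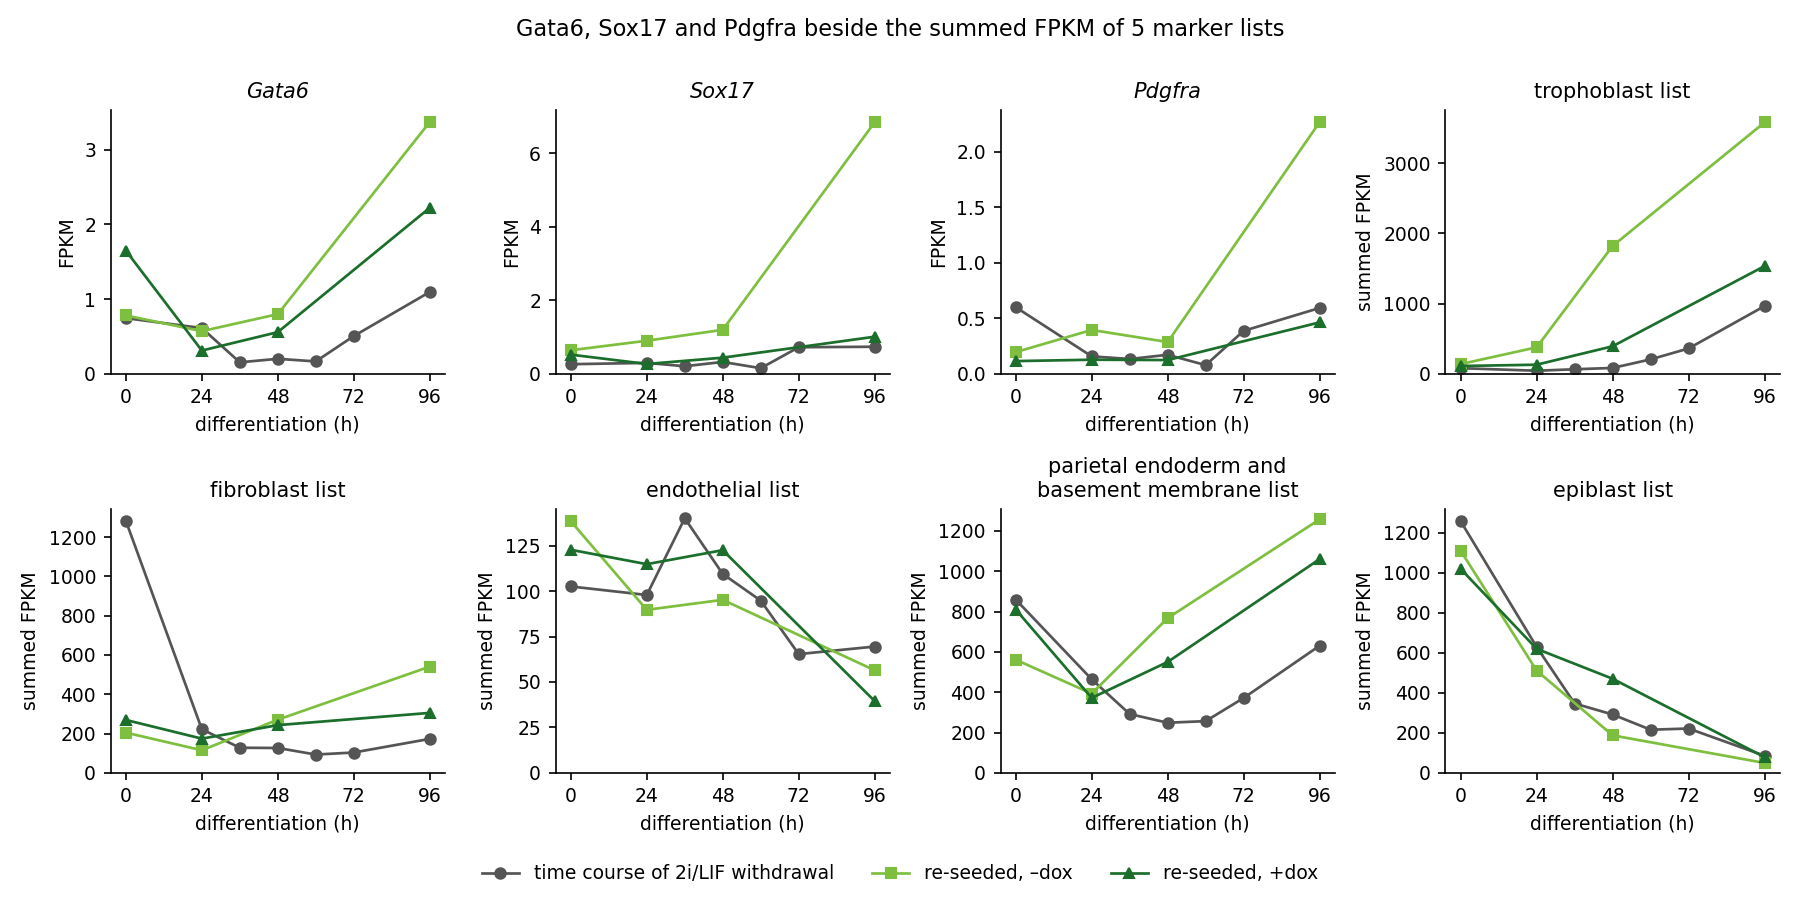
FPKM of Gata6, Sox17 and Pdgfra and the summed FPKM of 5 marker lists against hours of differentiation, with symbols for the time course (grey circles), –dox (light green squares) and +dox (dark green triangles) and 1 value per condition. The trophoblast sum of 3584 in the 96 h –dox cells, of which Krt18 made up 57.8%, coincides with the highest Sox17, Gata6 and Pdgfra. The fibroblast sum is highest at 0 h.

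Across the 15 conditions the members did not vary as a block. Spearman's rho between pairs ran from -0.29 for Gata6 with Amn to 0.74 for Gata6 with Sox17, and was 0.58 for Cubn with Amn and 0.64 for Sox17 with Dab2. Within the time course alone rho for Dab2 with Amn was 0.86 and within the re-seeded cells -0.17. Dab2 was opposite to the summed epiblast genes (Nanog, Pou5f1, Sox2, Klf2, Klf4, Esrrb, Prdm14 and Tfcp2l1), with rho of -0.83, and ran with the trophoblast sum, with 0.84. With the sum of 10 neurectoderm genes, among them Sox1, Pax6, Nes and Tubb3, Dab2 had 0.62. Within the re-seeded cells the rho of Dab2 was 0.93 with the neurectoderm and 0.95 with the trophoblast sum. Gata6 ran with the basement membrane sum, with 0.93, and with the fibroblast sum, with 0.73. Sox17 had 0.81 with the trophoblast sum, but 0.54 within the time course alone. Gata6 and Pdgfra, also highest in the 96 h –dox cells, had 0.54 and 0.43 with that sum. The largest gene of the trophoblast sum was Krt18 in every condition but 0 h. That of the fibroblast sum was always Fn1 or Acta2, so rho with these sums leans on a few genes. All these correlations describe 15 points that share libraries and a common progress of time, and 3 of the epiblast genes are also OSKM transgenes.

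The genes most like a member were those with the highest rho among the genes that reached 1 FPKM. For Dab2 they were Adamts3, Eif4g3 and Fzd6, with rho of 0.97, 0.96 and 0.96, and for Gata6 Cttn, Stau1 and Gm16229, with 0.96, 0.95 and 0.94. Sox17 came with Rnf214, Slc6a14 and Tns4, with 0.93, 0.93 and 0.92, and Amn with Gm3739, Prdx6 and Pcsk4, with 0.93, 0.90 and 0.88. The leading genes of the others were weaker, Zeb2os for Pdgfra at 0.91, Gm7097 for Gata4 at 0.87, Chtf8 for Cubn at 0.82 and Ext1 for Sox7 at 0.82. No member appeared among the 3 genes most like another member.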

How the data were processed

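Polyadenylated RNA of 30 samples was sequenced by the authors on an Illumina HiSeq. Per the methods, the authors mapped reads to mm10 with TopHat 2.0.14, quantified Gencode M4 transcripts with Cuffquant of Cufflinks 2.2.1, and combined both replicates of a condition in Cuffdiff into the deposited FPKM values. The library normalization is not given in the sources used here, and total depth is unknown. The table's columns of the authors' Cuffdiff calls after dox (induced, repressed or unresponsive) and of their 3 groups of dynamic genes were not used.

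Values were used as deposited. Changed meant a ratio of 2 or more whose higher value reached 1 FPKM, and a gene was tested in a comparison if it reached 1 FPKM in either condition. Medians used log2(FPKM + 0.1), and likeness Spearman's rho over 15 conditions. Steps came from 962 genes with 1 transcript of at least 3 kb, less 200 bases. Positions are from Gencode M21 on GRCm38, promoters from RefSeq. The members and lists were chosen with earlier results of these data known. Genes named are the members, list genes that a result turns on and the 3 genes most like each member. Python 3.11.15, pandas 2.3.3, scipy 1.17.1 and matplotlib 3.10.9 were used. The error of the calls was not tested, because the replicates of a condition are merged. The coordinates of Gata6 are not reported here.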

Additional observations from a re-analysis of the deposited data

How the results depend on the processing

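The table holds 1 value per condition, and leaving out a replicate was not possible. No paired analysis was possible because the replicates of a condition are merged. Most members lay near 1 FPKM, and the counts of changed members moved with the minimum. These counts were 1 at 24 h and 3 at 96 h against 0 h, 1, 3, 3 and 5 for –dox from 0, 24, 48 and 96 h, and 1, 1, 3 and 4 for +dox against –dox.

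With a minimum of 0.5 FPKM they were 3 and 5 in the time course, 3, 5 and 5 for –dox from 0, 24 and 48 h, and 2 and 4 for +dox from 0 and 24 h. With no minimum they were 5 and 5, then 6, 6 and 5, and for +dox from 0, 24 and 96 h 4, 5 and 7. With a minimum of 5 FPKM they were 0 and 1, then 0, 1, 1 and 1, and for +dox from 0, 48 and 96 h 0, 1 and 2, and 2 members reached the minimum in some condition rather than 8. With 1 FPKM in both values they were 0 and 1, 1 each for –dox from 24, 48 and 96 h, and 0 and 1 for +dox from 0 and 48 h. A fold of 1.5 gave 2 at 24 h against 0 h and 3 and 2 for +dox from 0 and 24 h. A fold of 3 gave 0 for –dox from 0 h and 0, 0 and 2 for +dox from 0, 24 and 96 h. The other counts stayed within 1.5 times.

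Pseudocounts changed the size of the median log2 ratios. Their sign changed only for 96 h –dox against 96 h, where the median was near 0, at -0.02 with 0.1 FPKM and 0.0008 with 1 FPKM. With 0.01 FPKM the median was 2.18 at 96 h against 0 h, 1.74 and 1.49 for –dox from 24 and 48 h, and -1.45 and -1.04 for +dox from 24 and 48 h. With 1 FPKM it was 0.62 at 96 h, 0.13, 0.55 and 0.51 for –dox from 0, 24 and 48 h, and -0.11, -0.44, -0.20 and -0.53 for +dox from 0, 24, 48 and 96 h.

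Scaling by median ratios, with factors from 0.990 to 1.03, changed no count of members and moved each median by less than 0.2, though the median for 96 h –dox against 96 h crossed 0, from -0.02 to 0.0169. Scaling to an equal total moved the median of all genes from -0.02 to 0.25 at 96 h against 0 h, from -0.01 to 0.24 for 0 h –dox, and from 0.05 to -0.18 and from -0.01 to -0.19 for +dox from 0 and 96 h, with smaller shifts elsewhere. The share of calls that were higher went from 50.6% to 62.9%, from 54.3% to 70.4%, from 39.3% to 19.1% and from 37.6% to 24.8% in these, and from 45.8% to 34.1% for +dox from 24 h. The median of the members at 96 h became 2.005, no member was called for 0 h –dox, and 2 were called for +dox from 24 h, Dab2 and Sox7. Of 80 log2 ratios of single members, 24 moved by 0.2 or more.

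By Pearson's r on the log2 scale, 7 of the 8 members had fewer than 2 of their 3 most similar genes in common with the main list.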
